A study of Mus musculus with 6 samples.

Results

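The B-cell and MHC class II genes described here are 34 named genes, taken from a list of names drawn up with earlier results of these data known, out of 24421 genes in an expression table of mouse regulatory T-cell (Treg) libraries. All 34 are in the table, and all 34 passed the filter on low values that left 10436 genes for testing. By role, 11 belong to the B-cell receptor, its co-receptors and its signalling chain, 9 are other surface or B-lineage genes, 5 are transcription factors and 9 serve antigen presentation by MHC class II. The libraries are labelled Treg, and these genes are known as markers of B cells and of antigen-presenting cells.

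Treg are the CD4 T cells that express Foxp3 and restrain immune responses. The libraries came from wild-type Treg of spleen and lymph nodes, which were unstimulated, stimulated, or stimulated in the presence of iBP, with 2 libraries in each of the 3 groups. The series' design describes the cells as activated in vitro and iBP as inhibition of H2AK119ub1, the ubiquitin mark that Polycomb repressive complex 1 places on histone H2A. Treg from Kdm2b conditional knockout mice are also named in the design and were not analysed here. The sources used here do not give mouse strain, age or sex, the stimulus, doses or times, how the cells were purified, or whether libraries came from separate animals. Levels are FPKM, read fragments relative to the length of the transcript and to the size of the library, which allows levels of different genes to be compared per length.

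As background, B cells recognise antigen through membrane immunoglobulin, which signals through the paired chains Cd79a and Cd79b to the kinases Lyn, Blk, Syk and Btk. The programme is set by the factors Ebf1 and Pax5. MHC class II molecules are pairs of an alpha and a beta chain that present peptides to CD4 T cells. Cd74, the invariant chain, escorts them, H2-DM loads peptide and H2-O restrains H2-DM, and the coactivator Ciita switches the genes on together. B cells and dendritic cells express class II constantly, whereas mouse T cells are not known to express these genes at a high level.

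Transcripts of Cd74, H2-Aa, H2-Ab1 and H2-Eb1 were among the most abundant in every library, with means of 1290 to 2943 FPKM. The other class II members, H2-DMb1, H2-Ob, H2-DMa, H2-Oa and Ciita, had means of 5.41 to 101. The sum of all class II members below therefore rests mostly on those abundant genes. The 9 MHC class II members took 2.57% and 2.13% of summed FPKM unstimulated, 2.21% and 2.47% stimulated, and 2.39% and 2.34% with iBP. The groups overlapped, with means of 2.35% ± 0.312, 2.34% ± 0.183 and 2.37% ± 0.0404 (SD, n = 2 libraries). For comparison, 14 T-cell markers such as Cd3e, Cd4 and Lck together took 0.911% to 1.07%. Of these, Cd2 alone read 1710 to 2351 FPKM, where the whole T-cell list summed to 3408 to 4061 FPKM. The 17 members most restricted to B cells took 0.335% and 0.344% of summed FPKM unstimulated, 0.339% and 0.342% stimulated, and 0.307% and 0.317% with iBP. Both iBP libraries thus lay below the other 4 in that sum, and Cd79b, described below, carried the gap. Without Cd79b the sum was 0.249% and 0.260%, 0.250% and 0.253%, and 0.246% and 0.250%, an overlap of all groups. That exclusion was chosen after the values were seen. In bulk RNA, such a sum does not separate the number of B cells from the RNA per B cell. Why Cd79b was lower with iBP was not tested.

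**Figure D1:**
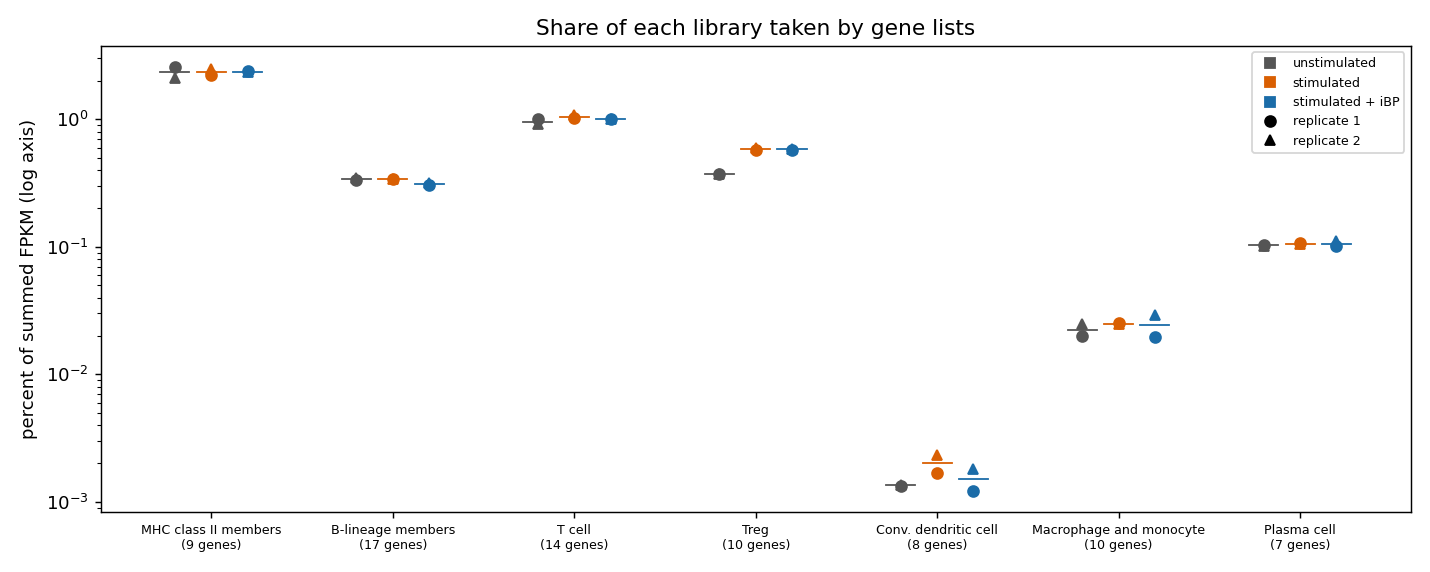
Percent of summed FPKM (log axis) taken by each gene list in each of the 6 libraries, with circles for replicate 1, triangles for replicate 2 and short lines for group means. The MHC class II members lie above the T-cell markers in every library, and the Treg markers lie at 0.375% and 0.376% in the unstimulated libraries against 0.572% to 0.597% in the others.

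The labelled identity was checked against its markers. Foxp3, the factor that defines Treg, read 35.5 and 47.1 FPKM unstimulated, 121 and 101 stimulated, and 122 and 124 with iBP, and the T-cell receptor chain gene Cd3e lay between 57.6 and 83.3. The libraries therefore held T-cell and Treg transcripts together with those of the 34 genes. H2-Aa was 28.0 to 38.7 times as high as Cd3e per length, and Cd79a 3.40 to 4.86 times. These ratios depend on the marker chosen, as only Cd28 and Thy1 of the T-cell markers had lower means than Cd3e. Cd79a, at a mean of 272 FPKM, lay below Lat at 317 and Cd2 at 2033 and above the other T-cell markers. The median B-lineage member stood at 0.271 to 0.328 of the median T-cell marker, with group means of 0.308 ± 0.0283 unstimulated, 0.287 ± 0.0233 stimulated and 0.297 ± 0.00976 with iBP (SD, n = 2 libraries).

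Markers of other cells that carry class II were mostly low. Low values were common in the whole table, however, as only 40.65% of all 24421 genes had a mean of at least 1 FPKM. Of 8 conventional dendritic-cell markers, 6 stayed under 1 FPKM in every library, among them the integrin gene Itgax, listed at 0 in 4 libraries and at no more than 0.126. The list's sum ran from 4.48 to 8.82 FPKM, and Flt3, at 2.02 to 5.14, and Zbtb46, at 0.558 to 2.30, made up most of it. Of 10 macrophage and monocyte markers, 5 stayed under 1 FPKM in every library, and Csf1r reached 0.993. Lyz2, a lysozyme gene of myeloid cells, stood apart at 65.6 to 99.6 FPKM. The list's share of summed FPKM was 0.0200% and 0.0249% unstimulated, 0.0253% and 0.0246% stimulated, and 0.0196% and 0.0290% with iBP, and Lyz2 made up most of it. C1qa, a complement gene of macrophages, read 1.73 and 3.10 FPKM, 3.98 and 5.92, and 2.45 and 3.46. C1qb, its partner, read 0.580 and 1.10, 2.50 and 2.75, and 1.03 and 0.651. Both were highest in the 2 stimulated libraries, without passing the limma test against unstimulated (adjusted p = 0.399 and 0.298) or between iBP and stimulated libraries (0.998 for each). Ly6c2, a monocyte surface gene, reached 6.33, and C1qc reached 1.58. Of 6 plasmacytoid dendritic-cell markers, 0 stayed under 1 FPKM in every library. Siglech reached no more than 1.32, Klk1 3.88, Ccr9 2.51 and Pacsin1 6.37. The other two, Tcf4 at 16.1 to 20.1 and Ly6d at 38.8 to 56.7, were higher and are also expressed by B cells. Which cells carried the 34 transcripts was not tested.

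The stage markers that were fixed for B cells were uneven. Of 8 genes of early B-cell progenitors, 6 stayed under 1 FPKM in every library. These include the recombinase genes Rag1, at no more than 0.0517, and Rag2, listed at 0 throughout. Dntt reached only 1.24, whereas Il7r, which T cells also express, read 22.75 to 37.61. Jchain, which joins secreted immunoglobulin in plasma cells, read 35.7 and 38.4 unstimulated, 23.0 and 20.7 stimulated, and 29.3 and 45.7 with iBP, lowest in both stimulated libraries. It did not pass the test in stimulated against unstimulated (adjusted p = 0.131) or iBP against stimulated libraries (0.998). The plasma-cell genes Xbp1, a factor of the secretory programme that many cells express, and Mzb1 ran from 249 to 289 and from 62.7 to 83.5, and 0 of 6 tested plasma-cell markers passed in any comparison.

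Among germinal centre markers, Mef2b was listed at 0 throughout, Gcsam reached 0.235, Rgs13 1.90 and S1pr2 2.05. Fas, a death receptor that activated T cells also carry, read 39.2 and 32.2 FPKM unstimulated, 71.4 and 73.8 stimulated, and 70.2 and 63.6 with iBP. It rose by 1.01 ± 0.15 (log2, SE) in stimulated and 0.89 ± 0.15 in iBP against unstimulated libraries (limma adjusted p = 0.00476 and 0.00903). These calls did not hold without the low-value filter (0.133 and 0.123) or without the variance trend (0.154 and 0.181), nor, for the first, without stimulated replicate 2 (0.0547) and, for the second, without iBP replicate 1 (0.129) or 2 (0.0624). Of 6 marginal zone markers, Cd9, a tetraspanin gene that other cells also express, read 183 and 188, 133 and 130, and 132 and 118. It fell by 0.57 ± 0.12 in iBP against unstimulated libraries (adjusted p = 0.0309), a call lost under 8 of 14 alternatives, with a replicate block (0.0875) and without any single unstimulated or iBP library (0.0795 to 0.326) among them. In stimulated against unstimulated libraries its difference was −0.49 (0.0722). The other marginal zone markers did not pass in any comparison.

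Among the 34 members, 4 had a mean above 1000 FPKM, where only 34 of all 24421 genes did. These 4 were Cd74, H2-Aa, H2-Ab1 and H2-Eb1, at ranks 9, 13, 17 and 29 of all genes. A further 4, Cd79b, Cd79a, Cd72 and H2-DMb1, lay between 100 and 1000 FPKM, and 28 of the 34 lay above 10. Annotated exons of 10 members overlap another gene, mostly on the opposite strand, and those of H2-DMa share 360 bases with Brd2 and those of Ciita 329 with Dexi. At the low end of level were Bcl11a, Cd180, Pax5 and Vpreb3, whose means ran from 1.47 to 2.79 FPKM.

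**Figure D2:**
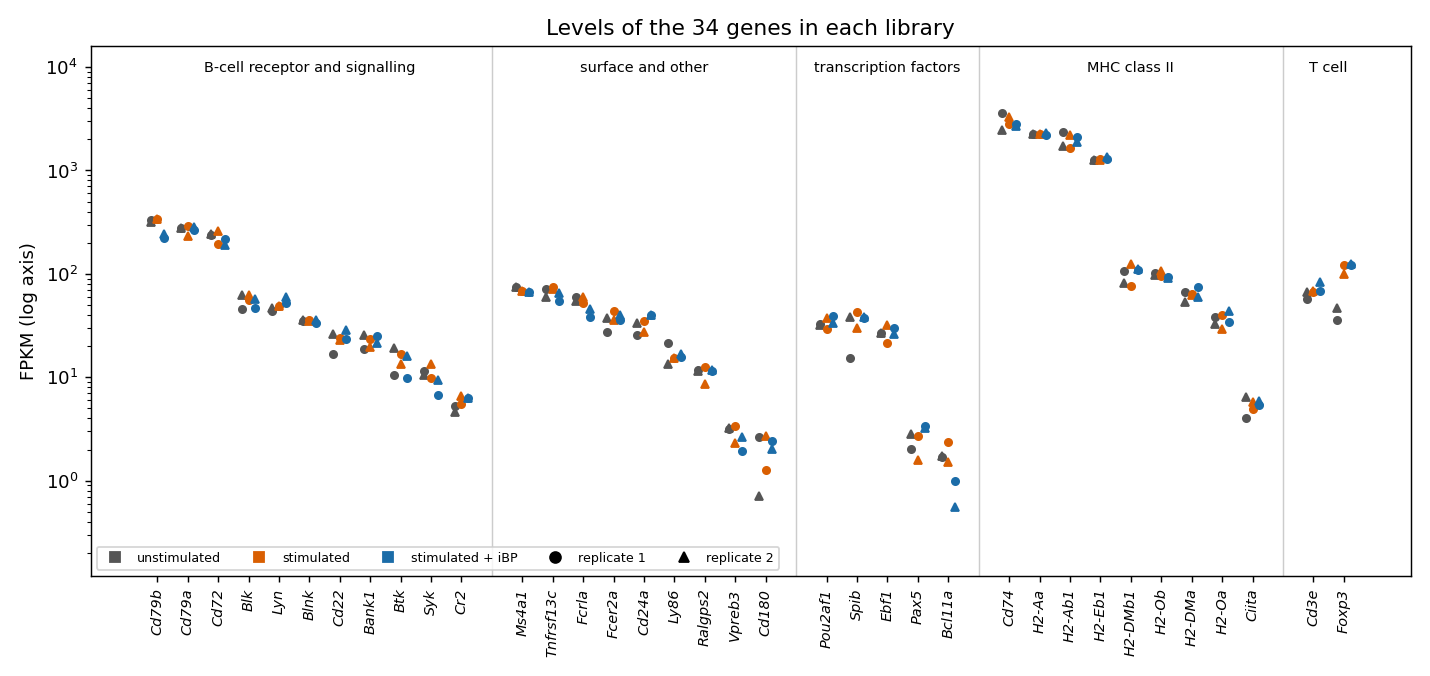
FPKM (log axis) of each of the 34 genes in the 6 libraries, ordered by mean level within each role, with Cd3e and Foxp3 for reference. Colours mark the 3 groups, and circles and triangles mark replicates 1 and 2. In each single comparison the points of most genes overlap between groups. Cd79b, Fcrla, Syk, Bcl11a, Ms4a1 and H2-Ob are lower in both iBP libraries than in every other library, while Cd24a, Lyn and Pax5 are higher.

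The classical class II chains lay in the MHC on chromosome 17. In GRCm38, 7 H2 members spanned positions 34092340 to 34316674. H2-Aa (chr17:34282744-34287823, minus strand), H2-Ab1 (chr17:34257689-34269419, plus strand) and H2-Eb1 (chr17:34305867-34316674, plus strand) are protein-coding genes whose annotated exons overlap no other gene. H2-Aa, the alpha chain of I-A, read 2231 and 2255 FPKM unstimulated, 2276 and 2250 stimulated, and 2216 and 2328 with iBP. Its libraries differed by 1.05 times from lowest to highest, a coefficient of variation of 1.75%. H2-Eb1, the beta chain of I-E, was nearly as even, at 1252 and 1264, 1298 and 1276, and 1287 and 1363, a coefficient of variation of 3.03%. By comparison, the median over the 4781 tested genes with a mean of at least 10 FPKM was 13.8%. The ratio of H2-Eb1 to H2-Aa stayed within 0.560 to 0.585.

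H2-Ab1, the beta chain that pairs with H2-Aa, varied more. It read 2377 and 1723 FPKM unstimulated, 1661 and 2182 stimulated, and 2100 and 1894 with iBP, so replicates of a group differed more than the group means did. Cd74 read 3604 and 2435, 2788 and 3317, and 2841 and 2671. Both genes were highest in unstimulated replicate 1 and next in stimulated replicate 2, Cd74 was lowest in unstimulated replicate 2, and H2-Ab1 was lowest in that library and stimulated replicate 1. H2-DMb1, a beta chain of the peptide loader H2-DM, had its lowest values in those same 2 libraries, at 106 and 81.1, 76.3 and 123, and 109 and 110. Its close copy H2-DMb2, outside the 34 genes, read 599 and 444, 493 and 604, and 583 and 496. Reads may be shared between those copies, and their sum ran from 525.5 to 727 FPKM. The ratio of H2-Ab1 to H2-Aa ranged between 0.730 and 1.07 without separating the groups.

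**Figure D3:**
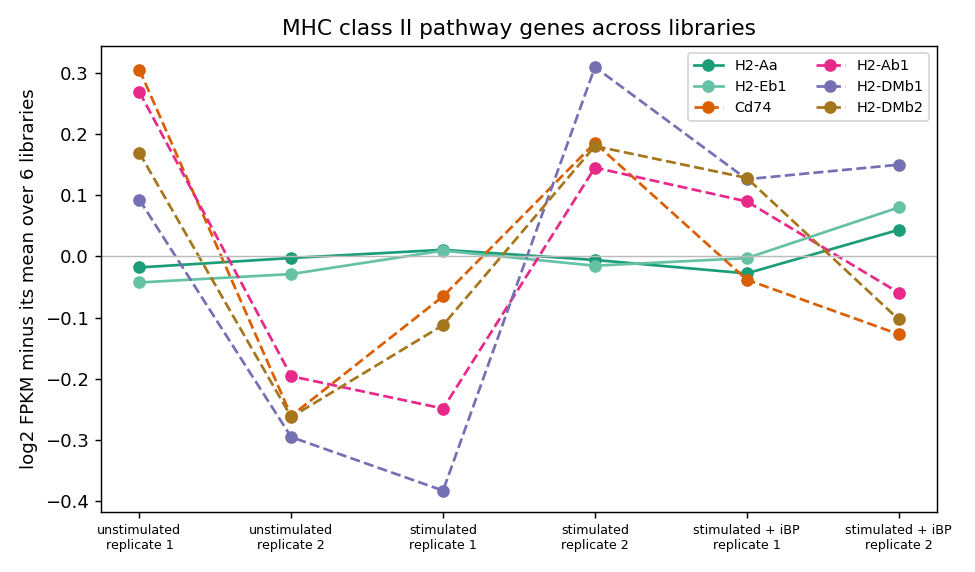
Log2 FPKM of 6 MHC class II pathway genes minus each gene's own mean over the 6 libraries, with lines only to guide the eye. H2-Aa and H2-Eb1 stay close to 0, while Cd74, H2-Ab1, H2-DMb1 and H2-DMb2 lie above their means in unstimulated replicate 1 and stimulated replicate 2 and below them in unstimulated replicate 2 and stimulated replicate 1.

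The remaining class II members were lower. H2-DMa, the alpha chain of H2-DM, ran from 53.1 to 74.7 FPKM over the libraries. H2-Ob, the beta chain of the H2-DM inhibitor H2-O, read 103 and 98.3 unstimulated, 95.8 and 108 stimulated, and 94.1 and 91.2 with iBP. Both iBP libraries were below the other 4, by a log2 difference of −0.13 from stimulated (95% interval −0.40 to 0.14; limma adjusted p = 0.998). Its partner H2-Oa ran from 29.2 to 43.5, and Ciita, the coactivator of the whole set, from 4.0 to 6.47. H2-Ea-ps, the row for the alpha chain partner of H2-Eb1, was listed at 0 in unstimulated replicate 1 and between 0.376 and 1.39 elsewhere. I-E alpha is not transcribed in mouse strains of the b haplotype, and the strain used is not given.

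Class II promoters are known for an X box, bound by the RFX complex, and a Y box, bound by NF-Y, at a fixed spacing. RefSeq promoter windows of GRCm38.p6, from 250 bases before to 50 after a start site, were matched for 26 of the 34 genes. They are shown because 5 of the 6 class II members with a window carry this arrangement, among them the even H2-Aa and H2-Eb1 and the more variable H2-DMb1, while H2-Ab1 and Cd74 were not examined for it. Each stretch is 5′ to 3′ on the gene's strand, with the letters GNAAC of the X box and GATTGG of the Y box in capitals. H2-DMb2 is included for its closeness to H2-DMb1, and only its Y box has those letters.
H2-Aa, chr17:34287858-34287917, minus strand: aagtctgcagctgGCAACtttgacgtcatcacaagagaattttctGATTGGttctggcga
H2-Eb1, chr17:34305762-34305821, plus strand: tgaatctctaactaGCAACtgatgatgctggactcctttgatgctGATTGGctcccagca
H2-DMb1, chr17:34153084-34153143, plus strand: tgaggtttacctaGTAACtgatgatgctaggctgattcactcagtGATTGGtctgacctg
H2-DMb2, chr17:34145113-34145172, plus strand: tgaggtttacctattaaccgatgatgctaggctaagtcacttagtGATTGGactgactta
H2-Ob, chr17:34238802-34238861, plus strand: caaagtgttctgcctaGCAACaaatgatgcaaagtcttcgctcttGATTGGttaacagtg
H2-Oa, chr17:34092290-34092349, plus strand: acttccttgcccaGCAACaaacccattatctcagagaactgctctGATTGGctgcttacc

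In H2-Aa, H2-Eb1, H2-DMb1, H2-Ob and H2-Oa the gap between both motifs was 24 to 27 bases, and the Y box began 44 to 62 bases before the start site. GNAAC at 15 to 40 bases before GATTGG, on either strand, was present in 5 of the 6 class II members with a window, in 0 of the 20 other members with one, and in 1.45% of all 32851 promoter windows. Members are counted by gene here and all promoters by window. By window, 5 of the 33 windows of the 26 matched members held this pair. GATTGG by itself, on either strand, was present in 16.1% of all windows. In the windows of H2-DMa it was found only at 199 bases before a start site and without GNAAC at that spacing. A match of letters is a description and not a measured binding site.

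Of the paired receptor chains, Cd79b (chr11:106311341-106314762, minus strand) had lower values in both iBP libraries, whereas Cd79a (chr7:24897381-24902197, plus strand) overlapped between groups. Cd79b read 329 and 314 FPKM unstimulated, 336 and 340 stimulated, and 222 and 244 with iBP. The log2 difference was −0.54 ± 0.11 (SE) from stimulated, with a 95% interval of −0.77 to −0.30, and −0.46 ± 0.11 from unstimulated. Neither passed the limma test over all genes (adjusted p = 0.600 and 0.0560). Over the alternatives the adjusted p ran from 0.325 to 1.0 and from 0.0366 to 0.434, and it was 0.0366 for iBP against unstimulated where only genes of at least 5 FPKM were tested. Cd79a read 280 and 276, 291 and 234, and 265 and 283, with overlapping groups and a log2 difference of 0.07 ± 0.12 between iBP and stimulated libraries (95% interval −0.20 to 0.34). The ratio of Cd79a to Cd79b was 0.851 and 0.880 unstimulated, 0.865 and 0.689 stimulated, and 1.19 and 1.16 with iBP, which restates the lower Cd79b.

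Co-receptors and kinases mostly overlapped between groups. The exceptions were Lyn, Syk, Cd72 (lower in iBP against unstimulated) and Cr2 (higher in both stimulated groups against unstimulated). Cd72, an inhibitory co-receptor, was the most abundant of the co-receptors and kinases at 191 to 257 FPKM. Of its exons, 1423 bases overlap the gene Tesk1 on the opposite strand, whose reads cannot be told apart where strand is not recorded. Cd22, a sialic acid receptor that restrains B-cell signalling, read 16.8 and 26.1, 24.0 and 23.2, and 23.6 and 29.0. Lyn, the kinase that starts receptor signalling, read 43.9 and 47.1 unstimulated, 49.0 and 49.1 stimulated, and 52.4 and 59.8 with iBP. Its groups did not overlap in any of the 3 comparisons, but the largest log2 difference, 0.29 ± 0.14 for iBP against unstimulated, did not pass (limma adjusted p = 0.433). Syk, the kinase that binds the phosphorylated Cd79 chains, read 11.4 and 10.6, 9.84 and 13.3, and 6.81 and 9.41, lower in both iBP libraries than in the other 4 (−0.47 ± 0.24 from stimulated, adjusted p = 0.998). Blnk, the adaptor below Syk, was level at 33.3 to 36.1. Blk ranged from 46.0 to 63.0, Btk from 9.93 to 19.2, the scaffold gene Bank1 from 18.6 to 25.4, and the complement receptor gene Cr2 from 4.61 to 6.57.

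Among the other surface genes, Ms4a1, which encodes CD20, was steady at 75.0 and 74.6 FPKM unstimulated, 69.0 and 68.8 stimulated, and 67.3 and 66.3 with iBP. The groups were in that order without overlap, yet the log2 difference of iBP from unstimulated was only −0.16 (95% interval −0.43 to 0.11; adjusted p = 0.681). Fcrla, an Fc receptor-like protein of B cells, read 59.7 and 54.2, 52.3 and 59.6, and 38.2 and 45.6. Like Cd79b it was lowest in both iBP libraries, by −0.41 ± 0.15 from stimulated and −0.44 ± 0.15 from unstimulated (limma adjusted p = 0.998 and 0.233). Cd24a, a surface glycoprotein that several blood lineages carry, was instead highest there, at 25.5 and 33.5, 34.9 and 27.4, and 39.7 and 40.3 (0.36 ± 0.18 and 0.44 ± 0.18; adjusted p = 0.998 and 0.343). Tnfrsf13c, the receptor for the survival factor BAFF, ran from 54.9 to 74.8, and Fcer2a, which encodes CD23, from 27.7 to 43.7. Ralgps2 ran from 8.66 to 12.5, and Ly86, which encodes MD-1, from 13.5 to 21.5. Its receptor partner Cd180 ran from 0.709 to 2.73, and Vpreb3 from 1.96 to 3.40.

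The transcription factors lay far apart in level. Ebf1 read 27.0 and 26.6 FPKM unstimulated, 21.4 and 32.4 stimulated, and 30.0 and 25.9 with iBP, about the level of Pou2af1, a coactivator of octamer-binding factors, at 29.4 to 39.5. Pax5, by contrast, read 2.05 and 2.86, 2.73 and 1.57, and 3.38 and 3.20. Spib, an ETS factor, read 15.2 in unstimulated replicate 1 and 38.3 in replicate 2, against 42.7 and 30.0 stimulated and 37.4 and 38.0 with iBP. Its log2 difference between stimulated and unstimulated was 0.55 ± 0.32 (adjusted p = 0.601), −0.09 without unstimulated replicate 1 and 1.18 without replicate 2 (adjusted p = 0.0302). For iBP against unstimulated it was 0.62 (adjusted p = 0.483), −0.02 without the former library and 1.26 without the latter (0.0213). Unstimulated replicate 1 stood apart from the rest on the first principal component of all tested genes, at −37.9 against −9.32 for its replicate and 10.5 to 13.3 for the other libraries. Bcl11a was near the filter, at 1.69 and 1.72, 2.38 and 1.5, and 0.992 and 0.559.

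Sequence shared by the B-lineage promoters was sparse for the motifs tried. The octamer ATGCAAAT, through which Pou2af1 acts, was present in 2 of the 20 matched members outside class II, on the opposite strand in both, and in 1.74% of all windows. The EBF1 motif CCCNNGGGA was present in 1 of the 20, Cd22, where it matches on both strands, and in 6.56% of all. Here too, members are counted by gene and all promoters by window. Of the 33 windows of the 26 matched members, 2 held the octamer and 1 the EBF1 motif. These 3 stretches are shown as the only matches, with the motif in capitals, which in Cd22 cover both overlapping matches, 1 base apart.
Blnk octamer, chr19:40994324-40994371, minus strand: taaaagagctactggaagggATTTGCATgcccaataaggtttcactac
Vpreb3 octamer, chr10:75948235-75948282, plus strand: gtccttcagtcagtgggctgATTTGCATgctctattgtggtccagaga
Cd22 EBF1 motif, chr7:30879049-30879097, minus strand: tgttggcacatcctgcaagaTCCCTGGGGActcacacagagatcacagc

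In stimulated against unstimulated libraries, which asks what differs after stimulation, 0 of the 34 members passed the limma test at an adjusted p under 0.05, where 1.29% of all tested genes did. At an unadjusted p under 0.05 the members numbered 0 as well, against 10.8% of all tested genes. Groups did not overlap for 5 members that were higher (18.7% of all tested genes) and 1 that was lower (19.1%). The 5 were Tnfrsf13c, Cr2, Lyn, Cd79b and H2-Eb1, and the 1 was Ms4a1. The median log2 difference was 0.04 over the members and 0.00 over all tested genes, and 33 members lay within 0.3 of 0. In the same fit 5 of 10 Treg markers rose, with Foxp3 at 1.41 ± 0.16 (adjusted p = 0.000923, but 0.132 without the low-value filter and 0.117 without the variance trend).

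In stimulated libraries with iBP against those without, which asks what differs when iBP is added, 0 members passed, and 0.00958% of all tested genes did. At an unadjusted p under 0.05 there were 2 members, Cd79b and Fcrla, against 4.77% of all. Groups did not overlap for 4 higher members (13.6% of all) and 7 lower ones (21.0%). The 4 were Cd24a, Pax5, Lyn and Ly86, and the 7 were Cd79b, Fcrla, Bcl11a, Tnfrsf13c, Syk, H2-Ob and Ms4a1. The median was 0.06 over the members and −0.04 over all tested genes.

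In iBP-treated against unstimulated libraries, which combines both steps, 0 members passed, where 1.75% of all tested genes did, and 3 had an unadjusted p under 0.05 (Cd79b, Fcrla and Cd24a; 12.2% of all). Groups did not overlap for 7 higher members (18.1%) and 8 lower ones (23.9%). The 7 were Cd24a, Lyn, Cr2, H2-DMb1, Pou2af1, Pax5 and H2-Eb1. The 8 were Cd79b, Fcrla, Bcl11a, Syk, Cd72, Ms4a1, Vpreb3 and H2-Ob. The median was 0.01 over the members and −0.03 over all. The comparisons share libraries, so Cd79b, Fcrla and Cd24a in the last 2 are not separate observations. The 95% interval of a member had a median half-width of 0.40 (log2) and a range from 0.20 to 0.92. Even before adjustment, a difference smaller than its own half-width could not be told from 0. The test adjusted over all genes asks for more. Cd79b differed by −0.54 in iBP against stimulated libraries, with an interval of −0.77 to −0.30, and did not pass (limma adjusted p = 0.600).

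**Figure D4:**
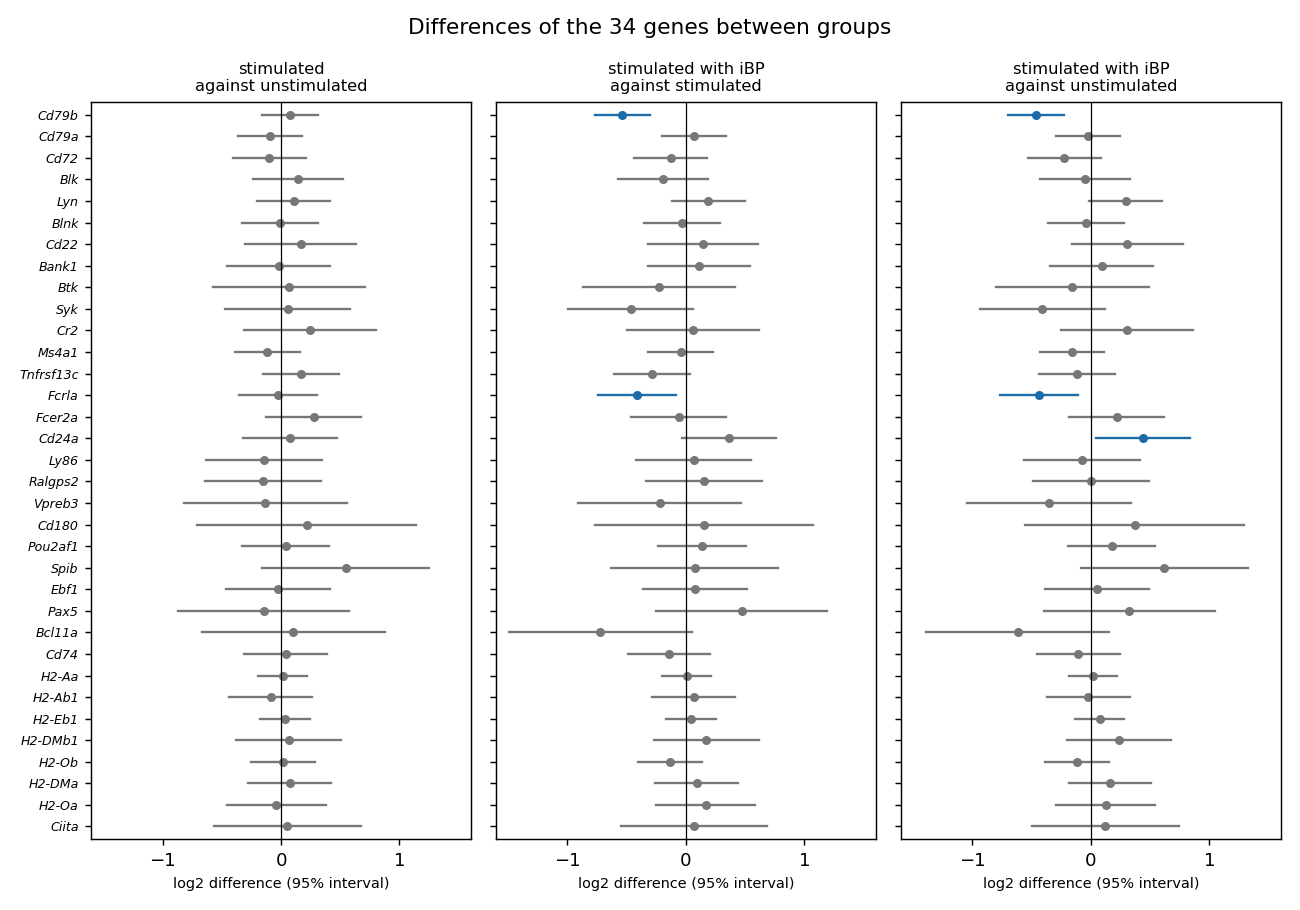
Log2 differences of the 34 genes (points) with their 95% intervals (lines) from limma in 3 comparisons, ordered by role and mean level. Blue marks intervals that leave out 0 before adjustment for the number of genes, which are Cd79b and Fcrla in both iBP comparisons and Cd24a in iBP against unstimulated.

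Other genes of both pathways did not pass either. Of 25 further B-cell receptor pathway genes in the table, 0 passed in any comparison, with 3, 2 and 2 at an unadjusted p under 0.05 in stimulated against unstimulated, iBP against stimulated and iBP against unstimulated. Among the most abundant by mean level were Fcmr at 183.5 FPKM, Cd37 at 169, Inpp5d at 101 and Bcl10 at 75.2. Immunoglobulin chain genes on that list, such as Ighm and Igkc, had no row under those names in the expression table and could not be analysed. Of 13 further class II pathway genes that passed the filter, 0 passed the test, with 0, 0 and 2 at an unadjusted p under 0.05. The most abundant were H2-DMb2, the protease gene Ctss at 116 and the costimulator gene Cd86 at 82.5, and Rfx5, which encodes a subunit of the RFX complex, ran from 0.777 to 2.60.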

How the data were processed

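Poly(A) RNA of 6 libraries was measured by SMART-seq, with oligo-dT priming and PCR amplification per the labels' protocols. The authors deposited FPKM values per gene. HISAT2 2.2.1, StringTie 2.1.1 and mm10 are named per the submitters' processing notes; the sources used here do not state the annotation, strand or handling of multi-mapped reads. Reads per library could not be recovered from low values, so depth is unknown and precision rests on the spread between libraries. Summed FPKM was 366044 to 381302.

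Genes that reached an FPKM of 1 in 2 or more libraries were tested as log2(FPKM + 1) with limma 3.58.1 (R 4.3.3), a variance trend, 3 groups and all 6 libraries, two-sided, with Benjamini-Hochberg adjustment over 10436 genes. Fold changes on this scale understate low genes. The test was checked on simulated data with changes larger than any member's difference, so that check does not cover small differences. The labels do not call replicates separate animals, so p-values reflect only spread between libraries, possibly technical. All 34 members are reported; pathway genes are named if they passed or were the most abundant, and some listed genes are not reported here. Some markers of other cells, such as Fas, Cd9, C1qa and C1qb, were named after their values were seen. The members and lists were chosen with earlier results of these data known. Gene positions are from GENCODE for GRCm38. Figures used matplotlib 3.10.9 in Python 3.11.15. Alternatives were a pseudocount of 0.1, no filter, a minimum FPKM of 5, TPM and median-of-ratios scaling, no variance trend, 2-group fits, a replicate term, leaving out each library, and other lists or summaries for the shares and ratio.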

Additional observations from a re-analysis of the deposited data

How the results depend on the processing

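The count of members past the test was 0 in all 3 comparisons and stayed 0 under 12 to 14 of 14 alternatives. It was 1 for iBP against unstimulated with a minimum FPKM of 5 (Cd79b). Leaving out single libraries gave 0 to 1 where either stimulated group was set against unstimulated libraries, the 1 being Spib without unstimulated replicate 2, and 0 in iBP against stimulated. With a replicate block the count of members was 0 in each comparison. The labels do not pair the replicates, and same-numbered libraries deviated with correlations of −0.046 to −0.012 over tested genes, which are not independent. Over all genes the block moved the calls in stimulated against unstimulated from 135 to 79 and in iBP against unstimulated from 183 to 109. Of 1662 single-gene differences under an alternative, 102 changed direction, none of them past the test. Few were calls to begin with: Foxp3 and Fas in both comparisons with unstimulated libraries, and Cd9 in iBP against unstimulated. The calls held under 12 of 14 alternatives for Foxp3 in each comparison, 11 and 10 for Fas, and 6 for Cd9. In all, 19 calls of these genes were lost. With all 25 members outside class II the summed share was 0.379%, 0.384% and 0.359% in unstimulated, stimulated and iBP libraries, against 0.340%, 0.341% and 0.312% for the 17 B-lineage members and 0.255%, 0.251% and 0.248% for those without Cd79b. With geometric means of FPKM + 1 the ratio of B-lineage members to T-cell markers was 0.272, 0.269 and 0.262. A group left with 1 library is assumed to vary like the others. With 2 libraries a group, small differences are beyond reach, and read depth is unknown.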
